A study of Gossypium hirsutum with 6 samples.

Results

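Of 421554 leaf transcripts of upland cotton (Gossypium hirsutum), 54 were highest after 4 h of heat in a heat tolerant and in a heat sensitive genotype and had dropped by 8 h. They were chosen by their values in all 6 libraries, on ratios of (RPKM + 1), where RPKM is the read count divided by transcript length and library size. A member had 10 RPKM or more at 4 h in both genotypes, a ratio of 4 h to control of 2 or more in both, and a ratio of 8 h to 4 h of 1/2 or less in both. It also had to stand below 10 RPKM in at least 1 of the 8 h libraries, or at an 8 h to control ratio below 8 in at least 1 genotype. That last condition removed none, since 54 transcripts met the others.

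Leaves of seedlings about 20 days old were taken from 2 genotypes. Nan Dan Ba Di Da Hua, described as heat tolerant, gave a control library at 28 °C and libraries after 4 and 8 h at 45 °C. Earlistaple 7, described as heat sensitive, gave the same 3. There was 1 library per group, so every value is that of a single library, the spread between plants is unknown, and no test is given. The heat began about 6 h after the onset of a 14 h light period. The labels mention controls held at 28 °C over either 4 or 8 h, without saying which of these the single control library of each genotype was. Ratios to control may thus be matched in time to 4 h, to 8 h or to neither, and the length of heating and the time of day cannot be told apart. Read depth relative to tolerant unheated leaves was estimated from the most common RPKM ratio between the 2 libraries among transcripts low in both. This takes the most common ratio to reflect equal read counts, which was not tested. The estimate was 0.806 and 0.796 in tolerant 4 h and 8 h libraries. In the 3 sensitive libraries (control, 4 h, 8 h) it was 1.14, 1.07 and 0.870.

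As background, heat activates heat shock factors, transcription factors that switch on genes for chaperones, the proteins that keep others folded. In plants many of these transcripts appear early and decline again while the heat lasts, and other transcripts change through processing, such as splicing, or through RNA decay. Which of these processes the 54 transcripts belong to was not tested. The files name transcripts by assembly identifiers only, of which 0 matched the 99454 genes of the reference table. No gene name, function or sequence is therefore given, and the leaf label was not checked against marker genes. In bulk tissue fewer cells with a transcript and less of it per cell cannot be told apart.

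Few of the transcripts that were up at 4 h in both genotypes had dropped 2-fold by 8 h in both. There were 9319 transcripts at 10 RPKM or more at 4 h in both, and 2048 of them were at least 2-fold above control in both. Of the 2048, 531 (25.9%) were at least 2-fold lower at 8 h than at 4 h in tolerant leaves and 133 (6.49%) in sensitive leaves, with 54 in both. Over all transcripts compared the shares were 16.7% and 2.22%. Median-of-ratios scaling turned the order of the genotypes, with 9.51% and 14.8% of 1136 transcripts, and upper-quartile scaling left them level, with 16.4% and 16.2% of 1354. Another 510 were lower by less than 2-fold in both, and 55 were at least 2-fold higher at 8 h in both. As deposited, no transcript was at least 2-fold higher at 8 h in tolerant leaves and at least 2-fold lower in sensitive leaves, while 19 showed the reverse. Such opposite outcomes were not counted under the other scalings or over all transcripts. Median-of-ratios scaling shifts the log2 ratio of 8 h to 4 h by 0.73 in tolerant and by -0.29 in sensitive leaves, so this imbalance may depend on the scaling.

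**Figure D1:**
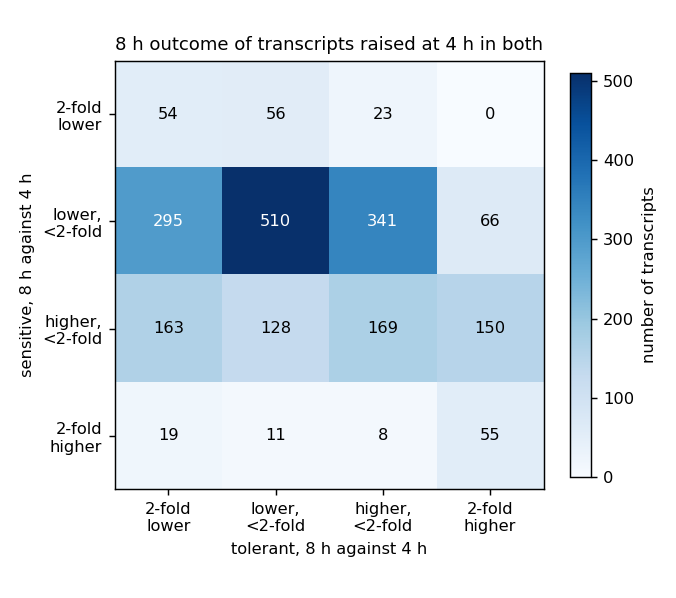
Number of transcripts by their change from 4 h to 8 h in tolerant (columns) and sensitive (rows) leaves, for the 2048 transcripts at 10 RPKM or more at 4 h and at least 2-fold above control in both; limits are on (RPKM + 1). The 54 transcripts described here fill the upper left cell, and the fullest cell holds 510 that were lower by less than 2-fold in both.

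Without the demand on the other genotype, 997 transcripts peaked at 4 h in tolerant and 357 in sensitive leaves, so the 54 are 5.42% of the first list and 15.1% of the second. In sensitive leaves, 355 of the 997 were below 10 RPKM at 4 h, 111 reached that level without a 2-fold gain over control, and 477 gained but were not 2-fold lower at 8 h. In tolerant leaves, 154 of the 357 were below 10 RPKM at 4 h, 70 were above it without a 2-fold gain, and 79 gained without the later drop. As deposited, the tolerant peaks thus missed the shared list most often for want of the drop in sensitive leaves.

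These counts depended on how the libraries were scaled to each other. Median-of-ratios scaling gave 146 transcripts in tolerant, 594 in sensitive leaves and 23 in both, and upper-quartile scaling 313, 717 and 42, so the order of the genotypes turned. Of the 54, 12 stayed members under all 3 scalings, from 9 components and 5 of the profile groups explained below. Median-of-ratios scaling shifted the tolerant 8 h to 4 h ratio by 0.73 on the log2 scale, and 33 of the 54 then missed the limit of the drop in that genotype. None missed it in sensitive leaves, where the shift was -0.29.

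**Figure D2:**
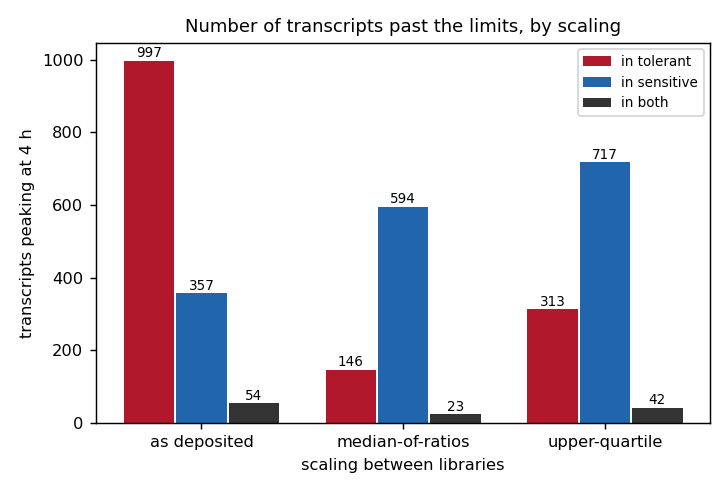
Number of transcripts that passed the limits of level, gain at 4 h and drop by 8 h in tolerant leaves, in sensitive leaves and in both, for RPKM as deposited and for 2 scalings between libraries. As deposited the counts are 997, 357 and 54, and under median-of-ratios scaling 146, 594 and 23.

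The 54 transcripts lay in 38 assembly components, groups of transcripts assembled together, and many of them were near copies of each other in profile. At most 4 members came from 1 component, and 29 components held a single one. A pair of transcripts from different components had identical values in all 6 libraries, at 0.74, 21.55 and 9.66 RPKM in tolerant leaves (control, 4 h, 8 h) and 0.52, 46.38 and 6.45 RPKM in sensitive libraries. Joining members whose values were proportional over the 6 libraries (Euclidean distance up to 0.3 on centred natural logarithms, single linkage) gave 26 profile groups, 13 of which spanned more than 1 component. A distance of 0.02 gave 46 groups and 0.1 gave 36. How the authors' counting shared reads between such transcripts is not given in the sources used here, so 54 transcripts need not be 54 genes, and counts over profile groups, a grouping chosen after values were seen, are given beside those over transcripts.

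By the choice of members all 54 were at least 2-fold above control at 4 h, against 20.7% of all transcripts compared in tolerant and 12.9% in sensitive leaves. Likewise all 54 were at least 2-fold lower at 8 h than at 4 h, against 16.7% and 2.22%. Levels at 4 h ran from 10.79 to 510.71 RPKM in tolerant leaves with a median of 24.1, and from 10.11 to 239.17 RPKM in sensitive leaves with a median of 26.4. In the controls the medians were 2.88 and 1.97 RPKM, and 11 members in tolerant and 22 in sensitive leaves were below 1 RPKM there, 9 of them in both. None was listed at 0 in any library. Most were thus low in unheated leaves, moderately abundant at 4 h and measurable at 8 h, while 1 member stood far above the others.

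The ratio of 4 h to control ran from 1.03 to 4.27 on the log2 scale in tolerant leaves (median 2.57) and from 1.25 to 5.21 in sensitive leaves (median 3.55). Over all transcripts compared the medians were 0.42 and 0.06. The gain was larger in tolerant leaves for 17 members and larger in sensitive leaves for 37. Among the 37 were all transcripts of the largest profile groups, of 8 and 6. This direction was not counted over other transcripts. For the 2048 up at 4 h in both the median gains were 1.86 in tolerant and 2.05 in sensitive leaves. With 1 transcript per profile group the medians were 2.35 and 2.36, so as deposited the genotypes were no longer apart. Median-of-ratios scaling shifts the log2 ratio of 4 h to control by -0.63 in tolerant and by -0.084 in sensitive leaves. Upper-quartile scaling shifts it by -0.52 and by -0.077. Medians per profile group were not computed under these scalings, so equal gains in the genotypes are not settled. Across the 54 members Pearson's r between the gains of the genotypes was 0.478 and Spearman's rho 0.495, and between the drops from 4 h to 8 h they were -0.092 and -0.145. These values describe transcripts that share 6 libraries and fall into profile groups, and the limits of the rule bound both axes.

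For most limits, members just inside differed little from transcripts just outside. The lowest tolerant 4 h levels inside were 10.79, 11.25 and 11.46 RPKM, and the nearest outside were 9.52, 9.41 and 8.88 RPKM. For the sensitive drop from 4 h to 8 h, the 3 smallest inside were all 1.01 on the log2 scale, and the 3 nearest outside were all 0.99. That limit alone kept out 477 transcripts, against 79 for the tolerant drop, 44 for the tolerant gain, 11 for the tolerant level, and 4 each for the sensitive gain and level. For the tolerant gain the values were 1.03, 1.03 and 1.09 inside against 0.98, 0.89 and 0.88 outside. For the sensitive gain they were 1.25, 1.27 and 1.27 inside against 0.83, 0.34 and -0.10 outside, a wider step than at the other limits. The lowest sensitive 4 h levels were 10.11, 11.11 and 11.39 RPKM inside against 9.95, 9.68 and 8.67 RPKM outside. For the tolerant drop the log2 values were 1.02, 1.02 and 1.03 inside against 0.98, 0.95 and 0.89 outside.

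**Figure D3:**
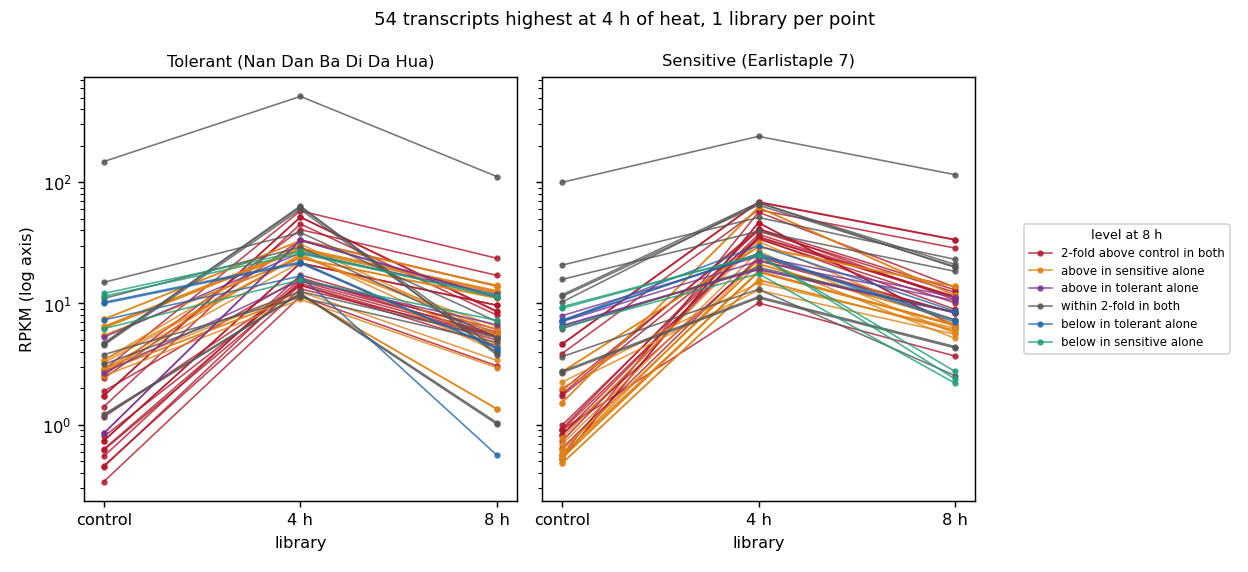
RPKM (log axis) of the 54 transcripts in the control, 4 h and 8 h libraries of the tolerant (left) and sensitive (right) genotype, 1 line per transcript, coloured by the level at 8 h relative to control. The most abundant transcript reaches 510.71 RPKM at 4 h in tolerant leaves, and every other line stays below 100 RPKM.

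Where the transcripts stood at 8 h relative to control separated them into 6 kinds, using a 2-fold limit on (RPKM + 1). In tolerant leaves 21 (38.9%) were still at least 2-fold above control, against 27.5% of all transcripts compared, and 3 (5.56%) were at least 2-fold below, against 20.8%. The sensitive genotype had 34 (63.0%) above, against 18.8%, and 3 (5.56%) below, against 8.25%. The rule bears on these shares, and for the 2048 transcripts up at 4 h in both genotypes 73.7% in tolerant and 85.6% in sensitive leaves were at least 2-fold above control at 8 h. In both genotypes at once 17 members (31.5%) were above control, against 66.4% of the 2048. Another 17 (31.5%) were above in sensitive leaves alone, against 18.5%, and 4 (7.41%) in tolerant alone, against 7.28%. Within 2-fold in both were 10 (18.5%), against 6.64%. A further 3 (5.56%) were below control in tolerant leaves alone and 3 (5.56%) in sensitive alone, against 0.244% each. The limit on the drop bears on these joint shares too.

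The 8 h to control ratio was lower in tolerant than in sensitive leaves for 40 of the 54 members (74.1%). It was also lower in tolerant leaves for 53.9% of the 2048 transcripts up at 4 h in both. Of all transcripts, 130246 reached 1 RPKM in control or at 8 h in each genotype, and for these the share was 58.9%. With median-of-ratios scaling the members' share was 70.4%, against 38.5% and 46.5%, and with upper-quartile scaling 72.2%, against 45.9% and 53.0%. Counted over profile groups, as deposited, it was lower in tolerant leaves in all members of 16 groups and lower in sensitive leaves in all members of 10. With 1 transcript per profile group the share was 61.5%, and with 1 per component 65.8%. Both are nearer to the 58.9% of all transcripts compared, so much of the members' excess lay in near copies. These shares were not computed under the other scalings. Expressed as the part of the gain at 4 h that was gone by 8 h, in RPKM, the return ran from 57.1% to 171% in tolerant leaves (median 81.6%) and from 54.8% to 145% in sensitive leaves (median 77.7%). As deposited it passed 100%, which means a level below control, for 14 members in tolerant and 5 in sensitive leaves, 2 of them in both. These counts were not made over other transcripts or under the other scalings. Median-of-ratios scaling shifts the log2 ratio of 8 h to control by 0.10 in tolerant and by -0.37 in sensitive leaves. The difference between 14 and 5 is therefore not settled.

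**Figure D4:**
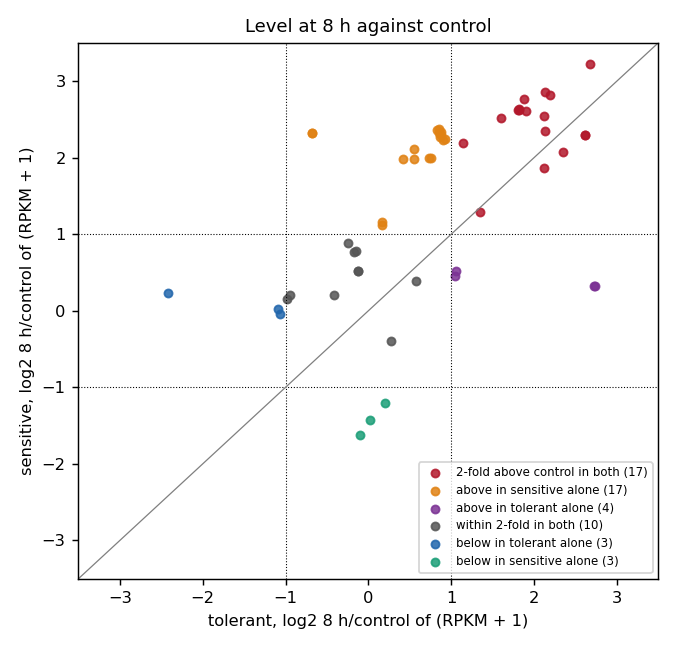
Log2 ratio of 8 h to control on (RPKM + 1) in tolerant (horizontal) and sensitive (vertical) leaves for the 54 transcripts, with dotted lines at 2-fold and a grey line of equal ratios. In 40 of the 54 the ratio is lower in tolerant leaves (61.5% with 1 transcript per profile group), and 17 lie above 2-fold in both.

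The 17 transcripts still above control in both genotypes at 8 h made up 8 profile groups of 10 components, and had been low in the controls, at 0.34 to 2.84 RPKM in tolerant and 0.52 to 4.64 RPKM in sensitive leaves. Their leading member, comp96871_c0_seq1, had the largest gain in (RPKM + 1) when each member was judged by its weaker genotype. It measured 2.84, 58.13 and 23.6 RPKM in tolerant leaves (control, 4 h, 8 h) and 0.56, 56.61 and 13.61 RPKM in sensitive leaves. The gain at 4 h was 20.5-fold in tolerant and 101-fold in sensitive leaves. As deposited the 4 h levels were close, and the sensitive control stood at a lower level. It also had the highest mean 8 h to control ratio, still 8.31-fold and 24.3-fold above control in RPKM.

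The pair with identical values described above came next in gain. Its 4 h level was 29.1-fold above control in tolerant and 89.2-fold in sensitive leaves, and at 8 h it stood 13.1-fold and 12.4-fold above control. Tolerant leaves therefore held less of the pair than sensitive leaves at 4 h, with 21.55 against 46.38 RPKM, and more of it at 8 h, with 9.66 against 6.45 RPKM.

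A profile group of 3 transcripts showed the reverse order of gain. It stood at 1.41 to 1.74 RPKM in tolerant unheated leaves, 45.3 to 51.71 at 4 h and 8.01 to 8.66 at 8 h, and at 3.86 to 4.64, 59.14 to 68.89 and 28.64 to 33.69 RPKM in sensitive libraries. The gain was 29.7-fold to 32.1-fold in tolerant and 14.8-fold to 15.3-fold in sensitive leaves. By 8 h 84.96% to 86.4% of it was gone in tolerant leaves and 54.8% to 55.2% in sensitive leaves. These 3 were members under all 3 scalings, and as deposited they lay close to the limit of the sensitive drop.

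The largest group among the 17 held 6 transcripts of 2 components, with 1 further member of these components nearby. The 6 were at 0.34 to 0.8 RPKM in tolerant unheated leaves, 11.46 to 17.19 at 4 h and 3.06 to 5.8 at 8 h. In the sensitive libraries they were at 0.64 to 0.99, 24.11 to 41.25 and 8.36 to 12.96 RPKM. As deposited, the sensitive genotype held more of each of them in every condition, though all control values were below 1 RPKM. The 6 are near copies in profile, each from single libraries, and so stand for a single comparison. The seventh transcript started higher, at 1.89 RPKM in tolerant and 1.92 RPKM in sensitive unheated leaves, and reached 16.31 and 39.58 RPKM at 4 h.

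The other members still above control in both were a pair of 1 component and 2 single transcripts. The pair reached 33.49 and 40.68 RPKM at 4 h in tolerant and 34.47 and 41.32 RPKM in sensitive leaves, and at 8 h it had 13.9 and 17.05 RPKM against 8.93 and 10.74 RPKM. One single transcript measured 0.63, 15.86 and 6.14 RPKM in tolerant and 0.83, 22.95 and 8.35 RPKM in sensitive leaves (control, 4 h, 8 h). The other measured 1.16, 14.15 and 4.49 RPKM in tolerant and 0.91, 10.11 and 3.68 RPKM in sensitive libraries. The last had nearly the same course in both genotypes, with gains of 12.2-fold and 11.1-fold.

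The 17 transcripts above control at 8 h in sensitive leaves alone made up 5 profile groups of 10 components. The largest of all groups was among them, with 8 transcripts of 2 components. These stood at 5.42 to 7.44 RPKM in tolerant unheated leaves, 23.54 to 33.04 at 4 h and 11.02 to 14.1 at 8 h, and at 0.48 to 0.62, 15.68 to 21.21 and 5.93 to 7.37 RPKM in sensitive libraries. Tolerant leaves held more of each of them in every condition under all 3 scalings, 1.49-fold to 1.58-fold at 4 h as deposited. They are near copies in profile, each from single libraries, and so stand for a single comparison. At 4 h the ranges of the genotypes overlapped under both other scalings. With median-of-ratios scaling they were 17.8 to 25.04 RPKM in tolerant against 15.3 to 20.7 RPKM in sensitive leaves. The gain at 4 h was 4.32-fold to 4.46-fold in tolerant and 31.8-fold to 34.9-fold in sensitive leaves, against the lower sensitive control. Their tolerant drop lay just inside the limit, and none of the 8 stayed a member under either scaling.

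A group of 3 transcripts of 2 components was among the strongest drops and stayed in under all 3 scalings. Its values were 2.76 to 3.43 RPKM in tolerant unheated leaves, 21.94 to 30.89 at 4 h and 4.03 to 5.49 at 8 h, against 0.56 to 0.78, 23.02 to 32.4 and 5.15 to 6.7 RPKM in sensitive libraries. As deposited the genotypes were thus alike at 4 h and 8 h and apart in the control. Median-of-ratios scaling divides tolerant and sensitive values by 1.32 and 1.03 at 4 h and by 0.795 and 1.25 at 8 h. The likeness at these times therefore depends on the scaling. Of the gain, 92.3% to 93.4% was gone by 8 h in tolerant and 79.6% to 81.3% in sensitive leaves.

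A pair of 2 components differed most between the genotypes at 4 h. Both transcripts measured 2.76, 11.67 and 1.35 RPKM in tolerant leaves (control, 4 h, 8 h), and in sensitive leaves 1.52, then 62.19 or 61.91, then 11.64 RPKM. The sensitive 4 h level was up to 5.33-fold above the tolerant one. At 8 h the pair was 2.04-fold below control in tolerant leaves in RPKM and 7.66-fold above it in sensitive leaves. It also had the strongest drop from 4 h to 8 h when each member was judged by its weaker genotype.

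Another pair, both members under all 3 scalings, measured 3.25 and 3.41 RPKM in tolerant unheated leaves, 24.5 and 24.7 at 4 h and 6.03 and 6.42 at 8 h. In the sensitive libraries both stood at 2.73 RPKM before heat, at 29.18 and 29.47 RPKM after 4 h, and at 13.83 RPKM after 8 h. As deposited the sensitive level was 1.19-fold the tolerant one at 4 h and 2.15-fold to 2.29-fold at 8 h. With median-of-ratios scaling it was 1.53-fold at 4 h and 1.37-fold to 1.46-fold at 8 h, and with upper-quartile scaling up to 1.502-fold and 1.73-fold to 1.84-fold, so the order of the 2 times depended on the scaling. The remaining pair reached 10.79 and 12.48 RPKM at 4 h in tolerant and 12.87 and 14.79 RPKM in sensitive leaves, and it was down to 2.96 and 3.39 RPKM against 5.57 and 6.25 RPKM at 8 h.

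The 4 transcripts above control at 8 h in tolerant leaves alone included a pair whose control levels differed widely between the genotypes. The pair measured 0.85 RPKM in tolerant unheated leaves, 33.16 and 33.42 at 4 h and 11.22 and 11.34 at 8 h. In sensitive unheated leaves it was already at 6.51 and 6.58 RPKM, and it reached 19.02 and 19.27 RPKM at 4 h and 8.39 and 8.48 RPKM at 8 h. Its gain of 39.0-fold and 39.3-fold was the largest of all members in tolerant leaves in plain RPKM, though not in (RPKM + 1), against 2.92-fold and 2.93-fold in sensitive leaves. The other 2 transcripts gained 5.77-fold and 4.97-fold in tolerant and 3.15-fold and 3.09-fold in sensitive leaves.

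The 10 transcripts within 2-fold of control in both genotypes at 8 h included the most abundant member. This transcript, comp120858_c0_seq3, measured 148.29, 510.71 and 111.33 RPKM in tolerant leaves (control, 4 h, 8 h) and 99.78, 239.17 and 115.48 RPKM in sensitive leaves. It was 3.44-fold above control at 4 h in tolerant and 2.40-fold in sensitive leaves. It was the only member above 100 RPKM at 4 h and the only one at least 2-fold higher in tolerant leaves at that time. It stayed in under all 3 scalings. Under both other scalings the genotypes were less than 2-fold apart in it at 4 h.

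Next in 4 h level was a group of 3 transcripts of 2 components, also members under all 3 scalings. They measured 4.54 to 4.72 RPKM in tolerant unheated leaves, 59.75 to 63.8 at 4 h and 3.76 to 4.17 at 8 h. In the sensitive libraries they measured 10.27 to 11.79, 64.73 to 67.78 and 19.83 to 20.98 RPKM. As deposited the peak was about equally high in both genotypes, but by 8 h tolerant leaves were back slightly below their control, with a return of 101%, against 83.4% to 83.6% in sensitive leaves.

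A pair at lower levels had a similar course. It measured 1.19 and 1.22 RPKM in tolerant unheated leaves, 11.98 and 12.16 at 4 h and 1.01 and 1.04 at 8 h, against 2.69 and 2.76, 11.11 and 11.39, and 4.3 and 4.41 RPKM in sensitive libraries. A further pair, of 1 component and with more RPKM before the heat, had 14.94 and 11.01 RPKM in tolerant unheated leaves, 38.44 and 29.16 at 4 h and 7.09 and 5.21 at 8 h. Its sensitive values were 20.72 and 15.8, 51.21 and 39.44, and 23.13 and 18.42 RPKM. In RPKM this pair was 2.11-fold below control at 8 h in tolerant leaves and 1.12-fold and 1.17-fold above it in sensitive leaves. Of the 2 single transcripts left, one gained 2.97-fold in tolerant and 3.60-fold in sensitive leaves, and the other 3.99-fold and 3.20-fold.

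A further 6 transcripts were below control by 8 h in 1 genotype. In tolerant leaves the lowest had 7.32, 16.86 and 0.56 RPKM (control, 4 h, 8 h), 13.1-fold below control and 30.1-fold below its 4 h level. In sensitive leaves the same transcript had 7.2, 30.05 and 8.63 RPKM and so was back near its control. The other 2 below control in tolerant leaves were a pair at 10.02 and 10.23, 21.45 and 21.96, and 4.25 and 4.28 RPKM over the same 3 conditions. In sensitive leaves this pair returned to its control, at 7.29 and 7.14, 25.26 and 25.91, and 7.02 and 7.3 RPKM.

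The 3 transcripts below control at 8 h in sensitive leaves alone showed the mirror image. A pair of 2 components measured 12.11 and 11.47 RPKM in tolerant unheated leaves, 26.9 and 25.71 at 4 h and 11.22 and 11.62 at 8 h, against 9.4 and 9.12, then 25.11 for both, then 2.38 and 2.75 RPKM in sensitive libraries. It was 3.95-fold and 3.32-fold below control at 8 h in sensitive leaves. The third measured 6.2, 15.68 and 7.25 RPKM in tolerant and 6.35, 17.59 and 2.2 RPKM in sensitive libraries. As deposited, up to 4 h the genotypes hardly differed for these 3, and they parted between 4 h and 8 h. All 6 transcripts below control had gains near the limit of 2-fold in tolerant leaves, from 2.14-fold to 2.53-fold in RPKM, and none stayed a member under either scaling.

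The level of the members differed between the genotypes in both directions before the heat, and, as deposited, mostly towards sensitive leaves after it. In the controls 12 members (22.2%) were at least 2-fold higher in tolerant leaves, against 5.28% of all transcripts compared, and 8 (14.8%) in sensitive leaves, against 3.22%. The 12 were 3 profile groups, of which 1 supplied 8 transcripts, and the 8 were 4 groups. At 4 h 1 member (1.85%) was higher in tolerant leaves, against 7.78%, and 11 (20.4%) in sensitive leaves, against 3.19%, from 4 profile groups.

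At 8 h 3 members (5.56%) were higher in tolerant leaves, against 9.53%, and 18 (33.3%) in sensitive leaves, against 20%. This order turned under median-of-ratios scaling, with 31.5% higher in tolerant and 18.5% in sensitive leaves, and nearly levelled under upper-quartile scaling, with 22.2% and 24.1%. A scaling divides every transcript of a library by the same factor, for median-of-ratios 0.795 in tolerant and 1.25 in sensitive 8 h leaves. Shares over all transcripts were not counted under these scalings, so the turn cannot be read as particular to the members. The members' median log2 ratio of tolerant to sensitive was 0.18, -0.18 and -0.60 (control, 4 h, 8 h), and the last was -0.03 under median-of-ratios scaling. Over all transcripts compared the medians were -0.11, 0.20 and -0.24. No member was at least 2-fold apart in the same direction in all 3 conditions, and 12 stayed within 2-fold of each other in all 3. The same counts were not made over all transcripts, so neither can be read as a trait of the members.

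The rule did not use the other transcripts of the same components, and these fell into those highest at 4 h, those lower at 4 h and others. The 38 components held 86 other transcripts, in 20 of the components. Of these, 85 reached 1 RPKM in some library, and 42 (49.4% of the 85) were highest at 4 h in both genotypes, as were 33035 (14.6%) of the 226960 transcripts that reached 1 RPKM in some library. Median-of-ratios scaling gave 34 in place of the 42, and upper-quartile scaling gave 38. Of all 86, 7 missed only the limit of level. How many reads the transcripts of a component share is unknown here, and its part in these counts was not tested.

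In 5 components, 12 other transcripts were instead, as deposited, at least 2-fold lower at 4 h than in control in both genotypes. They were 14.3% of the 84 such transcripts that reached 1 RPKM in control or at 4 h in each genotype, against 5.95% lower in both among all 129965 transcripts that did. With median-of-ratios and with upper-quartile scaling 20 of the 84 (23.8%) were lower, against 8.31% and 8.23% of all. As deposited, in each genotype singly 9.15% of all transcripts compared in tolerant and 10.8% in sensitive leaves were lower. Shares of a component's summed RPKM do not depend on the scaling between libraries, so these 5 components are described by them. The choice of the 5 components and of their lower transcripts was made on values as deposited and does depend on it.

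The component of comp120858_c0_seq3 had 6 other transcripts, and every one of them was lower at 4 h than in control and lower again at 8 h in both genotypes. The 5 that passed the 2-fold limit spanned 42.55 to 88.6, 17.06 to 33.99 and 6.91 to 10.79 RPKM in tolerant leaves (control, 4 h, 8 h), and 56.46 to 105.99, 22.55 to 36.29 and 5.69 to 15.07 RPKM in sensitive libraries. The member's share of the component went through 33.9%, 81.8% and 71.1% in tolerant leaves (control, 4 h, 8 h) and through 21.7%, 62.2% and 71.2% in sensitive leaves. The summed component was higher at 4 h than in control in tolerant leaves, with 624 against 437 RPKM, and lower in sensitive leaves, with 384 against 461 RPKM. With median-of-ratios scaling it was lower in tolerant leaves too, with 473 against 512 RPKM, and with upper-quartile scaling it was level there, with 520.4 against 521.5 RPKM. By 8 h it was at 157 and 162 RPKM, so in sensitive leaves the member peaked at 4 h and the component's sum did not.

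**Figure D5:**
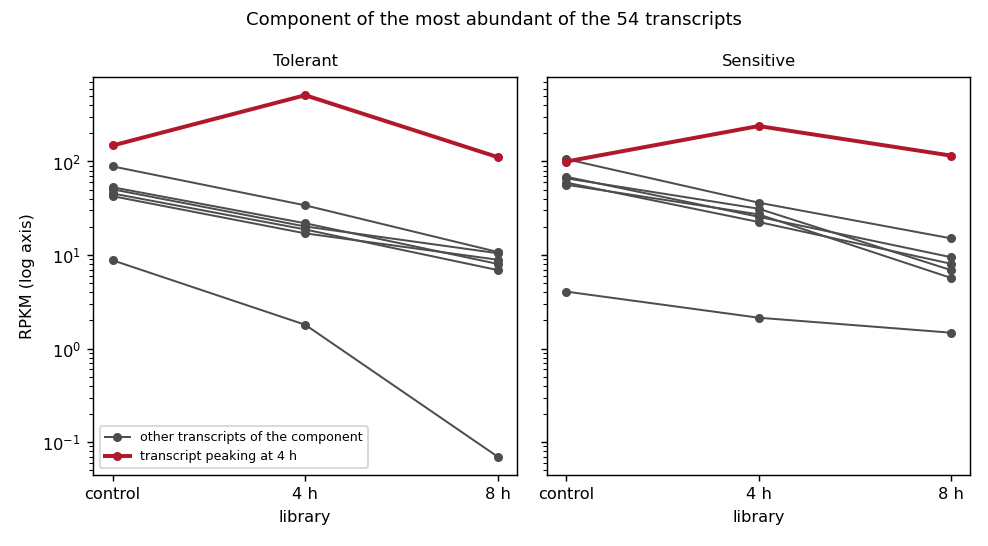
RPKM (log axis) in the control, 4 h and 8 h libraries of the tolerant (left) and sensitive (right) genotype for the 7 transcripts of the component that holds comp120858_c0_seq3 (thick red line). The member goes up at 4 h to 510.71 RPKM in tolerant and 239.17 RPKM in sensitive leaves, while the 6 grey lines go down at each step.

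A similar exchange was seen in the component of the transcript with the lowest tolerant 8 h level. The member held 21.5% of the component in tolerant unheated leaves, 77.3% at 4 h and 68.3% at 8 h, and 21.3%, 86.2% and 74.7% in sensitive libraries. The 3 other transcripts that were at least 2-fold lower at 4 h together held 55.7%, 10.7% and 24.4% of it in tolerant leaves (control, 4 h, 8 h) and 59.7%, 8.89% and 12.5% in sensitive libraries. The summed component hardly differed between 4 h and control in sensitive leaves, at 34.87 against 33.88 RPKM, and was lower in tolerant leaves, at 21.82 against 34.06 RPKM. At 8 h it was down to 0.82 RPKM in tolerant and 11.56 RPKM in sensitive leaves.

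The 2 components behind the group of 6 also changed in makeup, while their sums were higher at 4 h than in control. In one, 4 members together went through 35.7%, 94.3% and 88.8% of the component in tolerant and 46.7%, 96.3% and 93.6% in sensitive leaves (control, 4 h, 8 h). A single other transcript, which had led the component in unheated leaves, held 64.1%, 0.471% and 0.723% in tolerant and 52.1%, 0.270% and 0.501% in sensitive libraries. In the other component 3 members went through 5.86%, 47.0% and 41.2% in tolerant and 8.29%, 44.6% and 43.7% in sensitive libraries, while 2 other transcripts together held 40.1%, 0.886% and 1.51% in tolerant and 30.7%, 0.796% and 1.32% in sensitive libraries. The fifth component held 17 transcripts, of which the member took 4.53%, 20.1% and 32.8% in tolerant and 5.24%, 21.8% and 13.0% in sensitive libraries. That the members' share was larger at 4 h than in control follows from how members and components were chosen.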

How the data were processed

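The RPKM values are those the authors deposited, per the file headers, with 2 decimals and 1 column for each of 6 libraries; every file lists the same 421554 transcripts in 148415 components. Their assembler, aligner, counter, use of strand and read totals were not given in the sources used here. From these values, ratios of (RPKM + 1) were computed with pandas 2.3.3, numpy 2.4.6 and scipy 1.17.1. Shares of all transcripts compared are over those at 1 RPKM or more in either library. Folds in text are plain ratios of RPKM unless a log2 ratio or a 2-fold limit is named. Alternatives were median-of-ratios and upper-quartile scaling (75th percentile), a pseudocount of 0.1 RPKM, other limits, and 1 transcript per component or profile group. The rule and scalings were tested on simulated data. Transcripts described singly were the highest or lowest in 4 h level, gain, drop, genotype ratio and 8 h level, and those nearest the limits; others were added, by profile group, after their values were seen. The members and lists were chosen with earlier results of these data known. An additive model of genotype and condition was not run, because the rule bounds its residual for the members. Lists of heat shock and leaf marker genes could not be applied, because 0 identifiers matched a gene name. No paired or replicate analysis was made, with 1 library per group.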

Additional observations from a re-analysis of the deposited data

Results flagged for a closer look

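As deposited, 3 members stood at 8 h on opposite sides of control in the 2 genotypes and at least 4-fold apart in that ratio. The difference was not tested because each group has 1 library, and such cases were not counted over all transcripts. For the pair with the highest sensitive excess at 4 h, the log2 ratio of 8 h to control was -0.68 in tolerant and 2.33 in sensitive leaves, a difference of -3.00 for both transcripts. For the transcript with the lowest tolerant 8 h level it was -2.42 in tolerant and 0.23 in sensitive leaves, a difference of -2.65. Median-of-ratios and upper-quartile scaling shift the sensitive log2 ratio by -0.37 and -0.41. The side of control on which this transcript stood in sensitive leaves therefore depends on the scaling.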

How the results depend on the processing

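Median-of-ratios scaling gave 23 transcripts peaking in both genotypes, 146 in tolerant and 594 in sensitive leaves, against 54, 997 and 357 as deposited, and 12 of the 23 were among the 54. The median tolerant log2 ratio of 8 h to 4 h over the 54 was -0.78 under it, against -1.45 as deposited. It put 0% of them at least 2-fold higher in tolerant leaves at 4 h, and 31.5% in tolerant and 18.5% in sensitive leaves at 8 h. Upper-quartile scaling gave 313 and 717 for the genotypes alone, 0% at 4 h and 22.2% at 8 h for tolerant leaves. A 4 h limit of 5 RPKM gave 88 transcripts, 20 RPKM gave 26, no limit gave 182, and limits of 3 and 1/3 gave 8; taking 1 transcript per component, that of highest mean RPKM, before the rule gave 36 components, against 38 that hold members. With 1 transcript per component the sensitive medians were 2.48 for 4 h to control and 1.14 for 8 h to control, and with 1 per profile group 2.36 and 0.97, against 3.55 and 1.99 over transcripts. In the last case 11.5% were at least 2-fold higher in tolerant unheated leaves. With a pseudocount of 0.1 RPKM, 12 of 13 shares stayed within 1.5-fold, and 9.26% in place of 5.56% were at least 2-fold lower at 8 h than in control in tolerant leaves. That share was also 9.26% under upper-quartile scaling, and both scalings gave 9.26% in place of 14.8% higher in sensitive controls. No median changed sign. No paired analysis was possible because each group has 1 library, and leaving out a library would leave its group empty. Read totals are unknown, so no counting interval is given, and values near 0.5 RPKM in the controls set the largest folds.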
